A study of Mus musculus with 2 samples.

Results

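The enzymes described here make HMG-CoA and carry it through to cholesterol. They are Hmgcs1, Idi1, Fdps, Fdft1, Sqle, Lss, Cyp51 and Dhcr7, 8 genes of the 18193 read by the arrays through probe sets with 1 gene symbol. They were chosen with earlier results of these data known, taken by symbol from the platform annotation, and gave 21 probe sets. RNA came from whole pancreas of male mice aged 10 weeks. In the threonine-deficient group the dams, C57BL/6J females, had been fed a diet deficient in the essential amino acid threonine between embryonic days 12.5 and 14.5. In the control group the dams received control diet over the same days. All offspring were weaned at 3 weeks and given control diet from then on. No genetic change is labelled in either group, and maternal diet was the labelled difference between the groups. It cannot be told apart from any other difference between the 2 samples. Each group was 1 pool of RNA read on 1 Affymetrix array, and the sources used here do not give how many animals a pool held. There was therefore no replicate, no value below has a standard deviation or a p-value, and every difference is between these 2 pools.

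Cholesterol is built in the cytosol and endoplasmic reticulum from acetyl-CoA, first through mevalonate to short isoprenoid diphosphates, then through squalene, which is oxidised and folded into the sterol ring system and trimmed to cholesterol. The genes of the pathway are under the control of SREBP2, a membrane-bound transcription factor that is released to the nucleus when sterol in the endoplasmic reticulum is low, and many of them therefore tend to move together. Acinar cells of the pancreas carry an extensive endoplasmic reticulum and secretory membrane system, and fat cells lying in the tissue make lipid as well, so RNA of a whole pancreas mixes the pathway of several cell types.

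The stretch before the annotated start is shown for Hmgcs1, Idi1, Lss and Cyp51. These were the enzymes with a sequence available whose brightest probe sets passed the floor, described below, and were lower in the threonine-deficient pool. The ratio of Idi1 could only be negative, and a dimmer probe set of Lss was higher. Whether shared control had a part in these ratios was not tested. The sequences are from RefSeq, build GRCm38.p6, each 250 bases long and written on the strand of the gene. Capitals mark matches on either strand to TCACNCCAC, the core of the sterol regulatory element that SREBP binds, and to CCAAT, the box bound by NF-Y (ATTGG on the other strand). The positions are chr13:119690101-119690350 on the plus strand for Hmgcs1, chr13:8885356-8885605 on the plus strand for Idi1, chr10:76531355-76531604 on the plus strand for Lss and chr5:4104698-4104947 on the minus strand for Cyp51.
Hmgcs1: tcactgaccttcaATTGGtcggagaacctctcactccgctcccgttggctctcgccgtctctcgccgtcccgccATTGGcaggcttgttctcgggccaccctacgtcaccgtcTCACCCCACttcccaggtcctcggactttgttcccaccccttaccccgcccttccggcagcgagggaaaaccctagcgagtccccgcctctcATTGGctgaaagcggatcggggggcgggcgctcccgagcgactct
Idi1: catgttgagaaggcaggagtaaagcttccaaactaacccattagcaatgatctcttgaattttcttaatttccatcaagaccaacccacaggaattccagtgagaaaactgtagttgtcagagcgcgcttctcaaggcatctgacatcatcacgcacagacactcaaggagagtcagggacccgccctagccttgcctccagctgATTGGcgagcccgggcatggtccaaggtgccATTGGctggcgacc
Lss: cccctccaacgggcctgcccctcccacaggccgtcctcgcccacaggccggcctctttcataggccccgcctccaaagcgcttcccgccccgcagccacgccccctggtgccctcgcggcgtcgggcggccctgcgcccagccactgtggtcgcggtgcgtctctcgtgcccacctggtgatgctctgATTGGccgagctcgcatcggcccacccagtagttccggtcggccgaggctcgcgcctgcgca
Cyp51: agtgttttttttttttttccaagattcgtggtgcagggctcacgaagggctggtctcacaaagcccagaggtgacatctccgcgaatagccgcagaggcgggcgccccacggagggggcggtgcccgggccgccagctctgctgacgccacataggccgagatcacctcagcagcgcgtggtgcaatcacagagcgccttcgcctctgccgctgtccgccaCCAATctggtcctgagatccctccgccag

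The motif search covered windows of 300 bases, from 250 before to 50 after the start, and found windows for 5 of the 8 enzymes, Hmgcs1, Idi1, Lss, Cyp51 and Dhcr7. Fdps, Fdft1 and Sqle were not searched. The sterol element core was found in the window of Hmgcs1 alone among these 5 genes, beginning 137 bases before the start, and it is the 9-letter run in capitals in the sequence of that gene. Over all 32851 windows in the table, 1.24% held it. Among 11 other cholesterol synthesis enzymes with a window, 0 held that exact core. CCAAT was present in 5 of the 5 enzymes and in 10 of those 11 others. Over all windows the share was 37.4%, and over 27025 genes, some of which have several windows, it was 41.1%. Matches to GGGCGG, the GC box bound by Sp1, were present in 5 of the 5 and in 10 of the 11, against 35.7% of all windows and 38.2% of all genes. The window share of the sterol element core corresponds to 1.44% of genes. Dhcr7 has 3 windows, of which 1 held CCAAT and 2 a GC box. The nearest CCAAT before the start began 45 bases away in Hmgcs1, 14 in Idi1, 62 in Lss and 29 in Cyp51. None of the 3 motifs overlapped another in the 4 printed stretches. A match describes the letters only, and its absence says nothing of whether a factor binds.

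**Figure D1:**
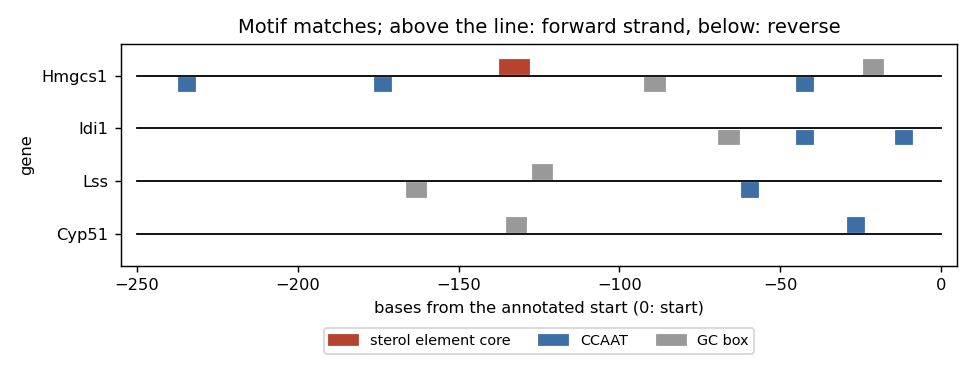
Matches to 3 motifs in the 250 bases before the annotated start of Hmgcs1, Idi1, Lss and Cyp51, with distance from the start in bases on the horizontal axis. Boxes above a line lie on the forward strand and boxes below it on the reverse strand. The sterol element core appears in Hmgcs1 alone, 137 bases before the start, while every gene shows at least 1 CCAAT and 1 GC box.

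The values are MAS5 signals, a linear brightness per probe set. Both arrays had been scaled to 1 common trimmed mean, so ratios cannot show a change in total mRNA. A floor of 264.9, the 60th percentile of the array where it was higher, replaced any lower signal. Each gene was read by its brightest probe set. The pools were pancreatic by their acinar markers, with Cel, the bile salt-stimulated lipase, at 262788 in the threonine-deficient and 237669 in the control pool. Of the 18193 genes, 10758 passed the floor in 1 or both pools, and their median log2 ratio of the threonine-deficient over the control pool was 0.00.

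Most of the enzymes had somewhat lower signals in the threonine-deficient pool. Of the 8, 7 lay above the floor, 6 of these had a log2 ratio below 0 and 1 above, and their median was -0.40. Over all genes above the floor 49.9% had a ratio below 0 and 50.1% above. The median is the value of Idi1, a bound: this gene passed the floor through the control pool alone, so its ratio could only be negative. Of the 6 enzymes above the floor on both arrays, 5 were lower and 1 higher, at a median of -0.39, where 52% of all such genes were lower. Sqle was the member with the lowest ratio and the one that passed 2-fold, as 0.874% of all genes did in that direction. That share was 1.62% with the floor at the 50th percentile and 3.61% without a floor, while Sqle stayed at -1.04 under both. No other member reached 1.5-fold lower, which 5.36% of all genes did, although Cyp51 came near it, and none was 1.5-fold higher, as 7.2% of all genes were. The median also depended on the handling of low signals and of several probe sets, being -0.25 with a pseudocount instead of the floor and -0.051 when a gene was read by the median of its probe sets in place of the brightest.

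Of the 21 probe sets, 12 passed the floor in 1 or both pools, and 9 of these were lower and 3 higher in the threonine-deficient pool. Without the probe set of Idi1 at the floor, 8 of the 11 above it on both arrays were lower. Over the 17531 probe sets with 1 symbol above the floor, 49.4% were lower and 50.6% higher. A further 9 were below the floor in both pools, at signals of at most 219, and no ratio is drawn from them. Probe sets of 1 gene read the same transcripts and are not replicates of the diet.

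**Figure D2:**
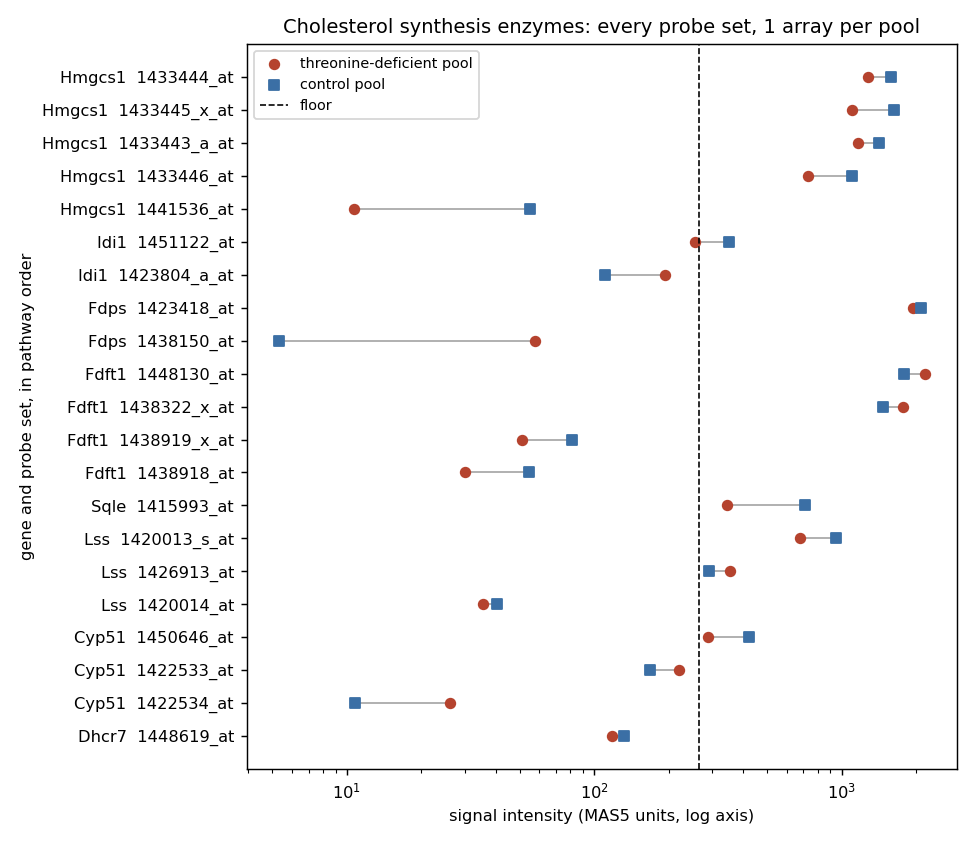
Signal of each of the 21 probe sets on the 2 arrays, on a log axis in MAS5 units, in pathway order from Hmgcs1 to Dhcr7, with circles for the threonine-deficient pool and squares for the control pool. The dashed line is the floor of 264.9; the 9 probe sets wholly left of it were not read as ratios, and Sqle shows the widest separation of the probe sets right of it.

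The first enzymes belong to the mevalonate and isoprenoid part of the pathway. Hmgcs1, the cytosolic synthase that makes HMG-CoA, had 1277 signal units in the threonine-deficient and 1575 in the control pool in its brightest probe set. Its log2 ratio was -0.30, or 1.23-fold lower. The other 3 probe sets above the floor had 1101 against 1623, 1168 against 1420, and 733 against 1097 units in the threonine-deficient against the control pool, with log2 ratios of -0.56, -0.28 and -0.58. All 4 thus lay on the same side, within 0.30 of each other. Of the 239 genes with 4 probe sets above the floor on both arrays, 21.3% had all 4 on 1 side, and the median gap between their highest and lowest ratio was 0.61. These 4 probe sets were designed from the same source sequence per the platform annotation, so their readings share a target. The names of those at -0.56 and -0.28 end in _x_at and _a_at, suffixes that mark possible sharing between transcripts. The remaining probe set, from another sequence, read 10.7 in the threonine-deficient and 54.7 in the control pool, below the floor on both.

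Idi1, the isomerase that interconverts the isoprenoid building blocks, had 255 units in the threonine-deficient pool, just below the floor, and 350 in the control pool. It was at least 1.32-fold lower. Its other probe set, from the same source sequence, went the other way at signals of 193 in the threonine-deficient and 110 in the control pool, both below the floor. The close paralogue Idi2 was read at 5.26 in the threonine-deficient and 3.90 units in the control pool by its 1 probe set, below the floor on both.

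Fdps, which joins isoprenoid units into farnesyl diphosphate, stood at 1942 units in the threonine-deficient and 2083 in the control pool. Its log2 ratio of -0.10 was the smallest in size among the 7 enzymes above the floor, and the local spread, the scaled median absolute deviation over the 500 genes of most similar signal, was 0.24. Its other probe set, at 57.4 in the threonine-deficient and 5.31 in the control pool, lay below the floor. The difference in Fdps between the pools was thus within the spread of genes of like signal.

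Fdft1, squalene synthase, commits farnesyl diphosphate to sterols and was the exception in direction. It had 2172 units in the threonine-deficient and 1778 in the control pool, with 0.29 as log2 ratio and 0.24 as local spread. A further probe set gave 1775 units in the threonine-deficient and 1468 in the control pool, a log2 ratio of 0.27. Its name ends in _x_at, a suffix that marks possible sharing. The 2 readings lay 0.01 apart, where the median gap over 2133 genes with 2 probe sets above the floor on both arrays was 0.31 and 52.1% of those genes had both on 1 side. Another 2 probe sets of Fdft1 read between 30.0 and 81.2 units over both pools, below the floor.

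Sqle, squalene epoxidase, is an oxygen-dependent and rate-controlling enzyme of the sterol part of the pathway. It was read by 1 probe set, at 345 units in the threonine-deficient and 708 in the control pool. The log2 ratio was -1.04, or 2.05-fold lower, and the local spread at that signal was 0.49. No second probe set could be set beside it. The signal in the threonine-deficient pool lay close to the floor, and with the floor raised to the 75th percentile, a signal of 512, the ratio was -0.47. With a pseudocount instead of the floor it was -0.67, and under either setting Sqle no longer passed 2-fold.

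Lss, lanosterol synthase, closes squalene epoxide into the first sterol, and its probe sets disagreed. The brightest had 681 units in the threonine-deficient and 945 in the control pool, with -0.47 as log2 ratio and 0.36 as local spread. Its name ends in _s_at, which marks possible sharing between transcripts. A dimmer probe set without such a suffix had 353 units in the threonine-deficient and 290 in the control pool, a log2 ratio of 0.28. The gap of 0.76 compares with a 90th percentile of 0.81 over genes with 2 probe sets above the floor. The remaining probe set read 35.5 in the threonine-deficient and 40.3 in the control pool, below the floor. The direction of Lss was thus not settled by these arrays.

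Cyp51, the cytochrome that removes a methyl group from lanosterol, had 288 units in the threonine-deficient and 423 in the control pool. The log2 ratio of -0.55, or 1.47-fold lower, compares with a local spread of 0.53. Its other probe sets lay below the floor on both arrays, and each had a higher signal in the threonine-deficient pool, at 219 against 168 units in the control pool and at 26.0 against 10.8. Dhcr7, the reductase of the last step to cholesterol, had 118 units in the threonine-deficient and 132 in the control pool in its 1 probe set. Both lay below the floor, so no ratio is given for it.

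**Figure D3:**
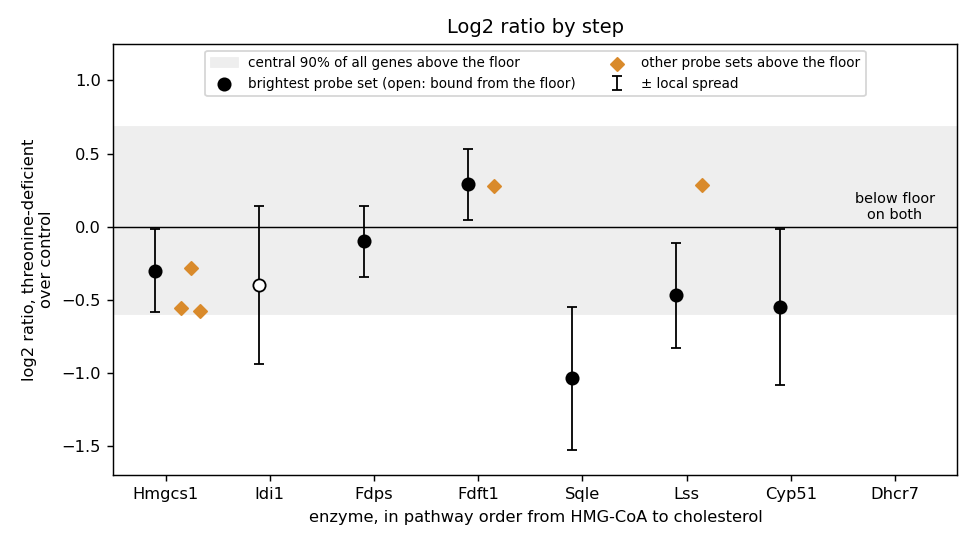
Log2 ratio of the threonine-deficient over the control pool for each enzyme in pathway order. Circles are the brightest probe set (open where it is a bound from the floor) with the local spread of genes of like signal as bars, diamonds are the other probe sets above the floor, and the grey band holds the central 90% of all genes above the floor. Sqle at -1.04 lies below the band, Fdft1 above 0 in both readings, and the readings of Lss lie on either side of 0.

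Set against genes of like signal, 5 of the 7 enzymes above the floor had an absolute log2 ratio above their own local spread, as 32.7% of all genes did. These were Hmgcs1, Fdft1, Sqle, Lss and Cyp51, of which Hmgcs1 and Cyp51 exceeded it by 0.02 and Fdft1 by 0.04. Local spreads ran from 0.24 for Fdps to 0.54 for Idi1, and were wider for the enzymes whose signals lay near the floor. Of the 3 enzymes with more than 1 probe set above the floor on both arrays, the readings agreed in sign for Hmgcs1 and Fdft1, which lay on opposite sides of 0, and not for Lss.

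**Figure D4:**
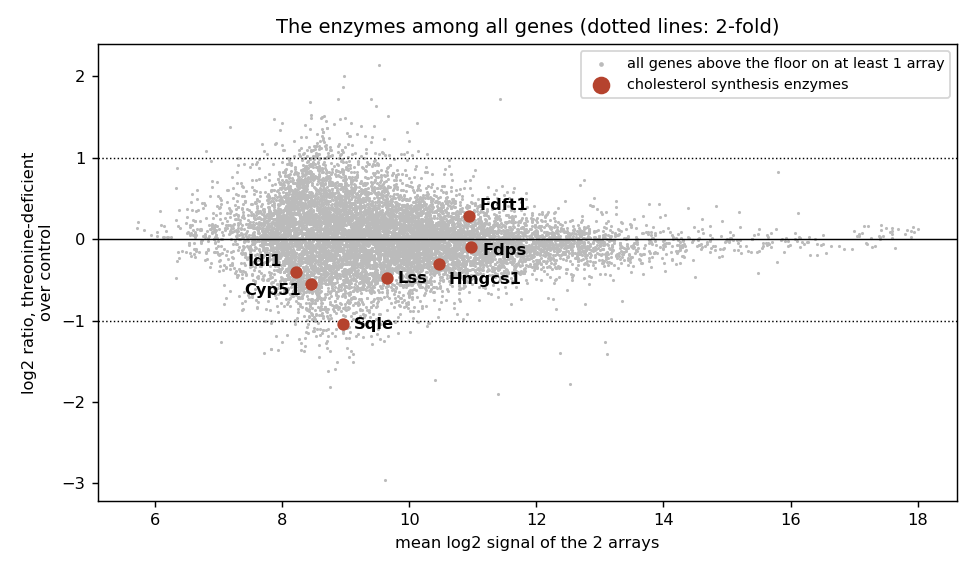
Log2 ratio of the threonine-deficient over the control pool against mean log2 signal of the arrays for the 10758 genes above the floor on at least 1 array (grey) and the 7 enzymes among them (red). Sqle lies just past the lower 2-fold line, and the other 6 lie between the 2-fold lines.

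The remaining enzymes of cholesterol synthesis were closer to 0 in their median, though both lists were chosen with earlier results of these data known. The contrast depended on reading the brightest probe set. With the median over probe sets, the 8 enzymes were at -0.051 and the remaining ones at -0.013. Of 14 remaining enzymes listed, 11 had a probe set with 1 gene symbol and 8 lay above the floor. Of these, 6 had a ratio below 0 and 2 above, at a median log2 ratio of -0.04 and from -0.56 to 0.10. None was 1.5-fold apart. The lowest was Msmo1, the sterol methyl oxidase that acts downstream of Cyp51 and of the sterol reductases that follow it, with 359 units in the threonine-deficient and 527 in the control pool (-0.56). Its other probe set lay below the floor. Taking both sets of enzymes, 12 of 15 above the floor had a ratio below 0 and 3 above, with a median of -0.25. Without Idi1, which could only be lower, 11 of 14 had a ratio below 0 and the median was -0.17. Of all genes above the floor in 1 or both pools, 49.9% had a ratio below 0, and of those above it on both arrays, 52%. These shares stand beside the counts of the lists that follow as well.

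The genes that sense sterol and govern the pathway showed smaller ratios. Of 23 genes of sterol sensing, uptake and SREBP processing, 18 lay above the floor, 12 with a ratio below 0 and 6 above, at a median of -0.09, and none was 1.5-fold apart. Srebf2, which encodes SREBP2, had 433 units in the threonine-deficient and 342 in the control pool, with 0.34 as log2 ratio and 0.59 as local spread. In a second probe set, at the floor in the control pool, Srebf2 was at least 1.02-fold higher. Insig1, which holds SREBP in the endoplasmic reticulum and is itself an SREBP target, had 3954 units in the threonine-deficient and 4183 in the control pool, a log2 ratio of -0.08.

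Genes of the branches that draw on the pathway or dispose of its product varied in both directions. Of 12 genes of the isoprenoid branches, which feed dolichol, ubiquinone and protein prenylation, 8 were above the floor, with 5 ratios below 0, 3 above and a median of -0.04. Dolk, dolichol kinase, had 769 units in the threonine-deficient and 1121 in the control pool (-0.54). Pdss2, a subunit of the synthase that makes the ubiquinone side chain, had 680 units in the threonine-deficient and 254, below the floor, in the control pool. It was at least 2.57-fold higher, as 1.28% of all genes were at least 2-fold higher. Its further 2 readings were below the floor on both arrays.

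Of 18 genes of sterol efflux, esterification and the LXR receptors, 14 were above the floor, with 9 ratios below 0, 5 above and a median of -0.23. Among the 9, Abcg5 and Ch25h passed the floor through the control pool alone, so their ratios could only be negative. Lcat, the plasma enzyme that esterifies cholesterol, had 620 units in the threonine-deficient and 1241 in the control pool, 2.00-fold lower. The sterol exporter gene Abcg1 had 1118 units in the threonine-deficient and 1596 in the control pool (-0.51), with 0.20 as a bound in a probe set at the floor in the control pool. Abcg8, a partner in another sterol export pump, had 784 units in the threonine-deficient and 528 in the control pool (0.57).

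**Figure D5:**
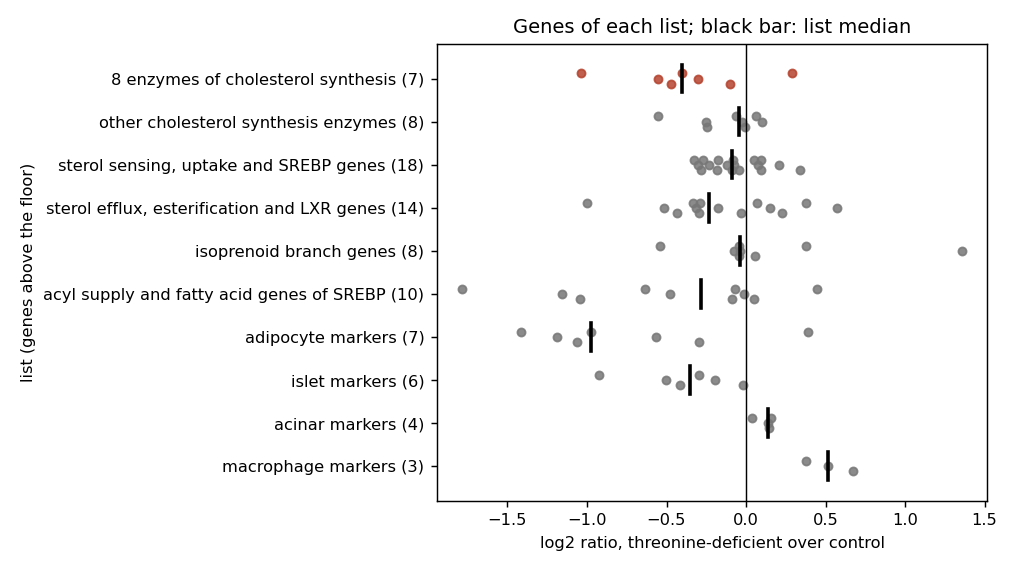
Log2 ratio of the threonine-deficient over the control pool for the genes above the floor in each list, 1 point a gene, with black bars at the list medians and the number of genes in parentheses. The enzymes have a median of -0.40 over the 7 above the floor, the other cholesterol synthesis enzymes -0.04, sterol sensing genes -0.09 and adipocyte markers -0.98.

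Markers of some cell types differed between the pools along with the enzymes. Of 7 adipocyte markers above the floor, 6 were lower in the threonine-deficient pool, at a median log2 ratio of -0.98, and their summed signal was 23420 in the threonine-deficient and 42707 in the control pool. Cidec passed the floor through the control pool alone and Pparg through the threonine-deficient pool alone, so the direction of each was fixed. Car3 had 5434 units in the threonine-deficient and 14501 in the control pool, and the adipokine gene Adipoq 855 in the threonine-deficient and 1787 in the control pool. Lep lay below the floor in both pools, at 84.6 in the threonine-deficient and 150 in the control pool, and no adipocyte marker read was at 0. All 6 islet markers were lower, with a median of -0.35 and summed signals of 142917 in the threonine-deficient and 173905 in the control pool. All 3 macrophage markers were higher, with a median of 0.51 and summed signals of 3869 in the threonine-deficient and 2702 in the control pool. All 4 acinar markers above the floor were higher, with a median of 0.14, and of the duct markers the 2 above the floor were higher, with a median of 0.60. Over all genes above the floor, 50.1% were higher and 49.9% lower. Cpa1, Cela1, Krt19, Cd68 and Ppy lay within their local spread, and the other islet, macrophage, acinar and duct markers above the floor lay outside it. The part of these cell types in the ratios of the enzymes was not tested, and in RNA of a whole tissue fewer cells of a type and less RNA per cell cannot be told apart.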

How the data were processed

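Whole-pancreas RNA was measured on 1 array for each of 2 pools. Each deposited value is the intensity of a probe set on a linear scale, made by the authors with MAS5 per the submitters' processing notes, of a version not given in the sources used here. The table held 45101 probe sets, 64 of them control probe sets that were left out. Of the rest, 34945 carried 1 gene symbol, 932 several and 9160 none; 34741 were matched by gene identifier to RefSeq (GRCm38.p6). From the deposited intensity, log2 ratios of the threonine-deficient over the control pool were computed with Python 3.11.15 and pandas 2.3.3, above a floor at the 60th percentile (264.9). Counts of higher and lower genes use 2-fold and 1.5-fold limits. With 1 array per group, the number of arrays limits the precision, no test was possible and counts are set beside those over all genes. The procedure was tested on simulated data, in which larger changes than those of the enzymes were set in bright genes only. It therefore does not show how well small differences or signals near the floor are read.

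The enzymes and gene lists were chosen with earlier results of these data known. All 8 enzymes are named with every probe set. Of the other lists, genes above the floor with an absolute log2 ratio of at least 0.5 are named, at most 6 a list. Srebf2, Insig1, Scd1 and Fasn are named whatever their values. List genes without a probe set that carries 1 gene symbol alone were not analysed here. Cell type markers are named as examples of their lists, and Idi2, as the paralogue of Idi1, was chosen after its value was seen. Abcg5 and Ch25h are named only because they passed the floor through the control pool alone. With 2 arrays a pattern is a single ratio, so no gene was named for likeness. The alternatives were centring, a loess trend, leaving out the floor or setting it at the 50th or 75th percentile, a pseudocount in its place, the median over probe sets, and use of those without a sharing suffix (_s_at, _x_at or _a_at).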

Additional observations from a re-analysis of the deposited data

How the results depend on the processing

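No paired analysis was possible because each group had 1 array. Of 8 alternatives, the median log2 ratio of the 8 enzymes moved to -0.25 with a pseudocount and to -0.051 with the median over probe sets, in which a probe set below the floor counts as 0 by construction. Under the other 6 it moved by less than the median local spread divided by the square root of the number of genes, and it stayed below 0 under all 8. That limit treats the enzymes as independent and gives no precision for the difference between diets. With only the enzymes above the floor on both arrays, an alternative chosen after seeing the data, the median was -0.39. Between 4 and 6 enzymes had a ratio below 0 over these settings, of 5 to 7 above the floor. The count was 4 of 5 with the floor at the 75th percentile, where 53.1% of all genes were below 0. With the median over probe sets it was 4 of 7, where 41.3% of all genes were below 0. The count of enzymes at least 2-fold lower was 0 with the floor at the 75th percentile and with a pseudocount. The corresponding shares of all genes were 0.313% and 0.483%, and both settings pull low signals together. The count at least 1.5-fold lower was 2 after the loess trend was removed. It was 0 with the floor at the 75th percentile, which left 5 enzymes above it. The shares of all genes at the 1.5-fold limit were not computed for these settings. Lss turned to 0.28 without probe sets of a sharing suffix. Sqle had -0.47 with the floor at the 75th percentile and ranged down to -1.10. Lss and Cyp51 had 0.00 with the median over probe sets. Hmgcs1 kept between -0.30 and -0.25, and Fdft1 between 0.14 and 0.33. The efflux list moved to -0.10 with the floor at the 75th percentile and to -0.029 without a sharing suffix. Adipocyte markers moved to -0.77, -0.57 and -0.82 with the floor at the 75th percentile, the median over probe sets and no sharing suffix. The signals of Idi1, Sqle and Cyp51 near the floor limit what can be read from them.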

Other observations

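Genes that supply acyl units and make fatty acids, which share control by SREBP with the cholesterol enzymes and are also typical of fat cells, included lower ratios than the enzymes themselves. Of 11 listed, 10 lay above the floor, 8 with a log2 ratio below 0 and 2 above, at a median of -0.28, and 3 were at least 2-fold lower, as 0.874% of all genes were. The adipocyte markers were lower as well, with a median of -0.98 and a summed signal of 23420 in the threonine-deficient and 42707 in the control pool, and their part in the ratios of these genes was not tested. Acss2, which makes acetyl-CoA from acetate, had 334 units in the threonine-deficient and 744 in the control pool, 2.23-fold lower. A second probe set of Acss2 read 250 in the threonine-deficient pool, below the floor, and 413 in the control pool, and was at least 1.56-fold lower. Me1, the malic enzyme that yields NADPH for lipid synthesis, had 440 units in the threonine-deficient and 908 in the control pool (-1.05), and -0.39 in its other probe set. Scd1 had 3188 in the threonine-deficient and 10992 in the control pool, and Fasn had 1175 in the threonine-deficient and 1824 in the control pool. The list median was -0.02 with the median over probe sets and -0.17 with the floor at the 50th percentile, alternatives added for this list after its values were seen.

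Genes of steroid synthesis, which are typical of the adrenal gland, were mostly dim. Of 5 listed, 2 passed the floor in either pool. Star had 504 units in the threonine-deficient and 328 in the control pool (0.62), and the adrenal hydroxylase gene Cyp21a1 had 163 units, below the floor, in the threonine-deficient and 439 in the control pool, at least 1.66-fold lower. Of the hepatocyte markers, 2 lay above the floor, Alb with 320 units in the threonine-deficient and 279 in the control pool, and Ttr, which islet cells also express, with 11538 in the threonine-deficient and 13714 in the control pool.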
